A study of Mus musculus with 2 samples.

Results

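The mouse genome holds 3 teashirt zinc finger genes, Tshz1, Tshz2 and Tshz3, and the chromatin loops around them were described in uteri collected in estrus and in diestrus. The loops were chosen by position, as every listed loop with at least 1 anchor inside a window around a Tshz gene. The windows, in the mm10 build, were chr18:83300000-84700000 for Tshz1, chr2:169100000-170700000 for Tshz2 and chr7:36000000-37700000 for Tshz3. They held 83 loops of 24131 in estrus and 118 loops of 26240 in diestrus. Of these, 21 in estrus and 27 in diestrus lay at Tshz1, 28 in estrus and 38 in diestrus at Tshz2, and 34 in estrus and 53 in diestrus at Tshz3. The windows had been picked with the loop lists already known, so every number of loops and contacts below is a description and none was tested. The uteri came from intact CD-1 mice, an outbred stock, aged 2 months and not exposed to any agent. Hi-C, which joins and sequences DNA fragments that lie close together in the nucleus, was done with the Arima HiC kit on 1 library of estrus uterus and 1 library of diestrus uterus, and the lists hold no expression by which the tissue could be checked. Nothing states how many animals went into each library. With 1 library per stage the difference between stages has no replicate check. In whole uterus, a loop present in fewer cells and a loop weaker in every cell cannot be told apart.

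Teashirt proteins take their name from a Drosophila gene that sets the identity of trunk segments. The vertebrate proteins carry widely spaced zinc fingers with an atypical homeodomain and act mainly as repressors of transcription. Tshz1 is known in the mouse for roles in the palate, the middle ear and the olfactory bulb, and Tshz3 for its part in forming the smooth muscle of the ureter. Smooth muscle also makes up the outer wall of the uterus. Estrus is the phase of the cycle around ovulation, when the uterus has been exposed to high estrogen, and diestrus is the phase in which progesterone from the corpora lutea is higher. In Hi-C, a loop is a pair of positions that touch more often than their surroundings, commonly where cohesin is halted at CTCF sites or where a promoter meets a distal element. A gene with a long stretch of few other genes on at least 1 side, as the Tshz genes have, often lies inside a long loop that holds many shorter loops.

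The starts of Tshz2 and Tshz3 lay inside loop anchors, and the sequences before them are shown because those anchors carried many of the loops described below. The 250 bases before each start are given from RefSeq on GRCm38.p6, for Tshz2 at chr2:169632259-169632508 and for Tshz3 at chr7:36697868-36698117, both on the plus strand. Capitals mark matches to the GC box, the letters GGGCGG on either strand.
Tshz2: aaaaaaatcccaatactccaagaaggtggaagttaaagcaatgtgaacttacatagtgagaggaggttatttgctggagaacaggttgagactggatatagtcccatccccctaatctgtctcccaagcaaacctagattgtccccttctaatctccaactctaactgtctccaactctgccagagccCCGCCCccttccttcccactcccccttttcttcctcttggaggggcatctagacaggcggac
Tshz3: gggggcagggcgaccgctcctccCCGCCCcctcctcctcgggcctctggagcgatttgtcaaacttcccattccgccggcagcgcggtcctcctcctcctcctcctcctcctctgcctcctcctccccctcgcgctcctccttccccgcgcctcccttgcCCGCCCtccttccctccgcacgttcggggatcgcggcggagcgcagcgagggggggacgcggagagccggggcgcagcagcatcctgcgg
The Tshz2 sequence had 1 GC box, 2 CG dinucleotides and 48.8% G and C bases. The Tshz3 sequence had 2 GC boxes, 27 CG dinucleotides and 74.0% G and C bases. Over 32851 RefSeq promoters of the same length, the median was 6 CG dinucleotides, 18.8% had fewer than Tshz2 and 91.4% had fewer than Tshz3. A GC box was found in 32.7% of them. The letters GGTCA on either strand, the core of the site bound by estrogen receptors, were in 35.2% of the promoters and had 0 matches in both windows, which says nothing about binding of the receptor to them. The promoter table matched 2 of the 3 genes, and the start of Tshz1 was not analysed here.

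All 3 windows listed fewer loops in estrus than in diestrus. The number in estrus over that in diestrus was 0.778 at Tshz1, 0.737 at Tshz2 and 0.642 at Tshz3, or 0.703 for the windows together, against 0.920 for the whole series. The chromosomes also differed among themselves. The same ratio was 0.864 over chromosome 18, 0.944 over chromosome 2 and 0.819 over chromosome 7, each without its Tshz window, so the chromosome that carries Tshz3 had fewer loops in estrus elsewhere too. When the genome was divided into 1496 tiles of 1.5 Mb with at least 10 loops in both libraries together, 9.43% of the tiles had at least 1.5-fold fewer loops in estrus. The ratio was as low as or lower than that of the Tshz1 window in 317 tiles, of the Tshz2 window in 228 and of the Tshz3 window in 95. A tile had a median of 20 loops in estrus and 21 in diestrus. The 53 diestrus loops at Tshz3 were reached or passed by 7 tiles, the 38 at Tshz2 by 70 tiles and the 27 at Tshz1 by 417 tiles, though the windows at Tshz2 and Tshz3 were 1.6 Mb and 1.7 Mb wide and that at Tshz1 1.4 Mb.

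A loop was counted as found in the other library when that library listed a loop with both anchors within 10 kb of it, nearest edges. In the Tshz1 window this held for 18 of 21 estrus loops (85.7%, 63.7 to 97.0%) and for 18 of 27 diestrus loops (66.7%, 46.0 to 83.5%). In the Tshz2 window it held for 20 of 28 estrus loops (71.4%, 51.3 to 86.8%) and 20 of 38 diestrus loops (52.6%, 35.8 to 69.0%). In the Tshz3 window, 31 of 34 estrus loops (91.2%, 76.3 to 98.1%) and 32 of 53 diestrus loops (60.4%, 46.0 to 73.6%) were found. Ranges are exact Clopper-Pearson 95% intervals and, like every interval given here, cover counting error only. Over the whole series, 19.2% of estrus loops and 25.6% of diestrus loops had no counterpart in the other library. At the Tshz genes 14 of 83 estrus loops and 48 of 118 diestrus loops had none. The diestrus share found, 59.3% (49.9 to 68.3%), lay under the 74.4% of all diestrus loops, while the estrus share, 83.1%, lay close to the 80.8% of all estrus loops.

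**Figure D1:**
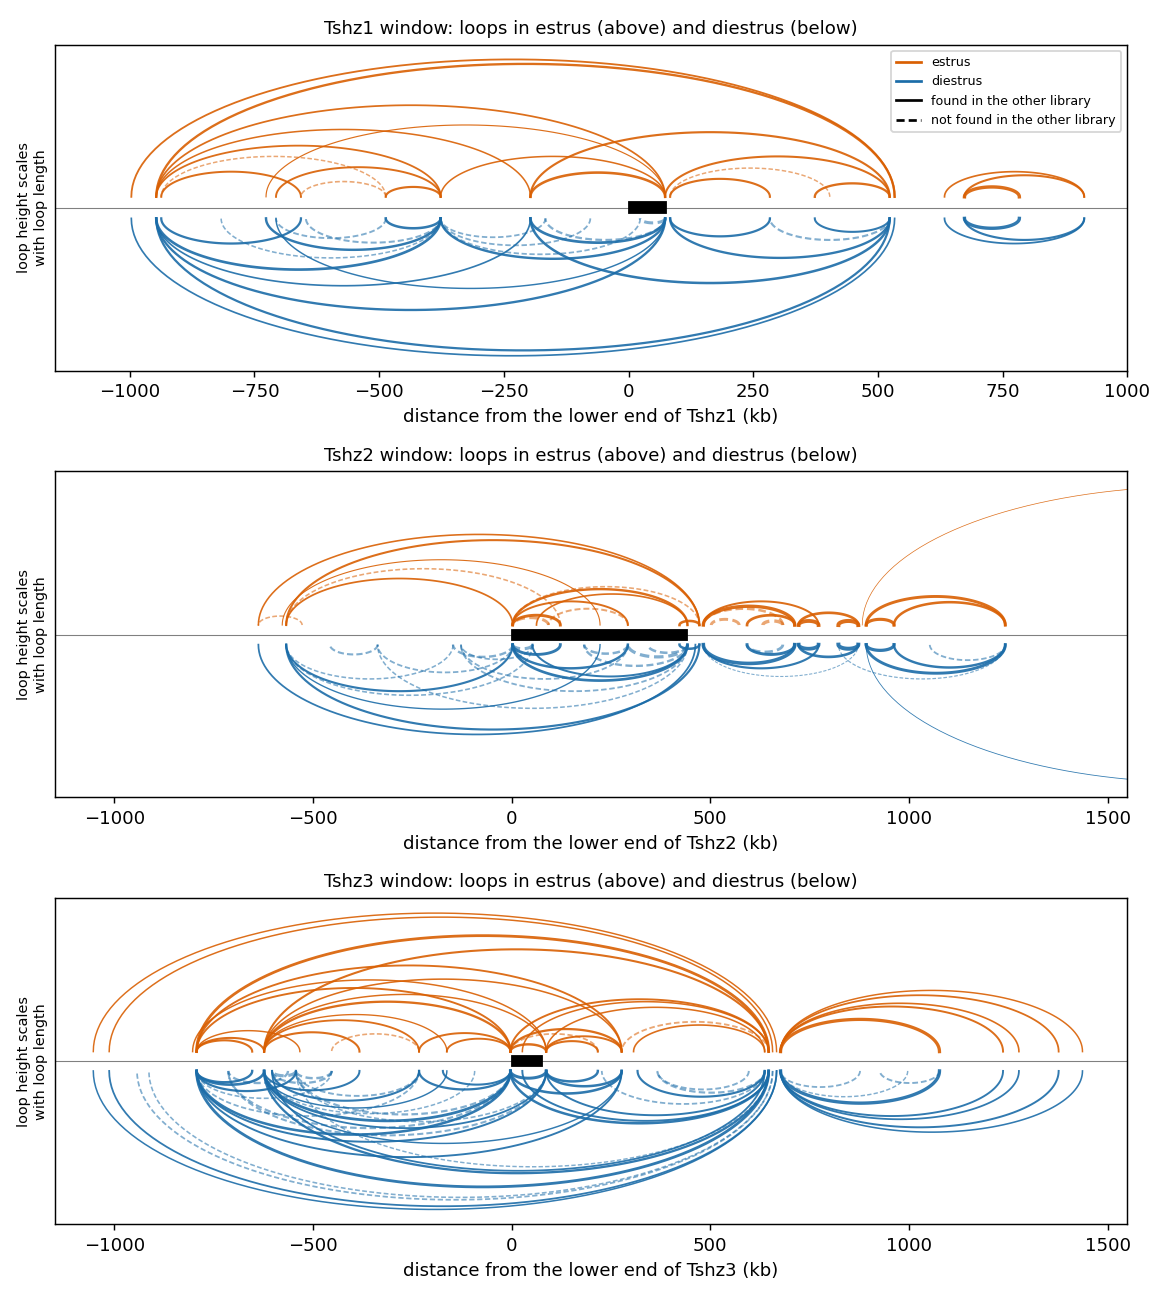
Loops of the Tshz1, Tshz2 and Tshz3 windows as arcs over the distance in kb from the lower-numbered end of each gene (black bar), with estrus above and diestrus below the line. Arc height scales with loop length, line width with contacts, solid arcs were found in the other library and dashed arcs were not. There were 3, 8 and 3 dashed arcs in estrus at Tshz1, Tshz2 and Tshz3, and 9, 18 and 21 in diestrus.

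Loops listed in 1 library alone were mostly weak. The strength of a loop is the observed contacts over those expected from the donut of pixels around it, and the median over all loops was 3.43 in estrus and 3.28 in diestrus. Of the loops without a counterpart, 13 of 14 in estrus and 37 of 48 in diestrus lay below the median of their library, with median strengths of 2.18 in estrus and 2.64 in diestrus. The window loops with a counterpart had medians of 3.67 in estrus and 3.94 in diestrus. All window loops together had medians of 3.28 in estrus and 3.11 in diestrus, below those of the libraries. The same share for all loops of the series without a counterpart was not computed. Their contacts had a median of 70.0 in estrus, between 56 and 400, and of 83.5 in diestrus, between 36 and 336. Loops with few contacts and a low strength lie nearest to the caller's limit, so an unlisted loop does not mean absent contacts. Whether a lower number of contacts in estrus by itself accounts for the unlisted loops was not tested.

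Each Tshz gene lay under more than 1 long loop that both libraries listed. For each gene the longest shared loop of at most 2 Mb over the gene with at least 100 contacts in both libraries was taken, a definition made after the data were seen, and it is called the enclosing loop below. At Tshz1 the enclosing loop ran over chr18:83060001-84550000 in estrus and ended at 84540000 in diestrus, with 137 contacts in estrus (exact Poisson interval 115 to 162) and 124 in diestrus (103 to 148). At Tshz2 it ran over chr2:169060001-170110000, with 103 contacts in estrus and 114 in diestrus. At Tshz3 it ran over chr7:35900001-37350000, with 222 contacts in estrus and 231 in diestrus. The ratio of contacts, estrus over diestrus, was 1.105 at Tshz1 (exact conditional interval 0.860 to 1.42), 0.904 at Tshz2 (0.685 to 1.19) and 0.961 at Tshz3 (0.796 to 1.16). All 3 intervals included the median contact ratio of all 19399 shared pairs, 0.957. Because at least 100 contacts were required in both libraries, a long loop that fell below this in estrus could not be chosen. The similar contacts at the enclosing loops are therefore in part set by the definition. Strength at the enclosing loop was 5.62 in estrus against 3.66 in diestrus at Tshz1, 7.29 against 7.09 at Tshz2 and 8.71 against 7.14 at Tshz3, with the largest difference at Tshz1. The centred ratio of strengths was 1.517 at Tshz1 (1.181 to 1.949), 1.016 at Tshz2 (0.771 to 1.34) and 1.208 at Tshz3 (0.9998 to 1.458). The expectation was taken as exact, which makes these intervals too narrow. Those of Tshz2 and Tshz3 included 1, so there the ratio did not differ beyond counting error. At Tshz3 a shorter shared loop over the gene, from 36.07 to 37.34 Mb, also had over 100 contacts in both libraries, with 104 in estrus and 132 in diestrus, a ratio of 0.788 (0.603 to 1.03). The upper anchor of the enclosing loop held an end of Zfp217 at Tshz2, lay inside Zfp536 at Tshz3 and inside Zfp407, a zinc finger gene, at Tshz1, so those contacts also belong to the neighbouring genes.

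The shorter loops under the enclosing loop differed more. Inside it means with both anchors between its ends or within 10 kb of them. Of the loops of the windows, estrus had 17 inside and diestrus 23 at Tshz1, 12 and 22 at Tshz2, and 27 and 41 at Tshz3. The enclosing loop itself was counted among the loops and pairs inside, here and below. Beside the enclosing loop the numbers were 3 in estrus and 3 in diestrus at Tshz1, 13 and 14 at Tshz2, and 5 and 8 at Tshz3. The remaining 6 loops in estrus and 7 in diestrus crossed an end of it. Loops without a counterpart lay inside the enclosing loop in 10 of 14 cases in estrus and in 39 of 48 in diestrus, while of all loops in the windows 56 of 83 in estrus and 86 of 118 in diestrus lay inside. Over loops listed at identical bins in both libraries, contacts inside the enclosing loop had a ratio of 0.694 at Tshz1 (0.640 to 0.752), 0.845 at Tshz2 (0.770 to 0.927) and 0.693 at Tshz3 (0.653 to 0.735). Together the 35 such pairs inside had 3735 contacts in estrus and 5170 in diestrus, a ratio of 0.722 (0.693 to 0.754). The 17 such pairs beside had 4381 contacts in estrus and 4596 in diestrus, a ratio of 0.953 (0.914 to 0.994), close to the 0.959 of the whole series. By gene, the ratio beside was 0.988 (0.881 to 1.11) at Tshz1 over 3 pairs, 0.956 (0.910 to 1.005) at Tshz2 over 9 and 0.910 (0.817 to 1.01) at Tshz3 over 5. The contrast between inside and beside was thus seen within the windows of Tshz1 and Tshz3, while at Tshz2 the intervals overlapped. Loops beside were also shorter, with a median of 240 kb in estrus and 280 kb in diestrus, against 385 kb and 345 kb inside. They also had more contacts, with a mean of 249.4 in estrus against 97.05 inside.

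**Figure D2:**
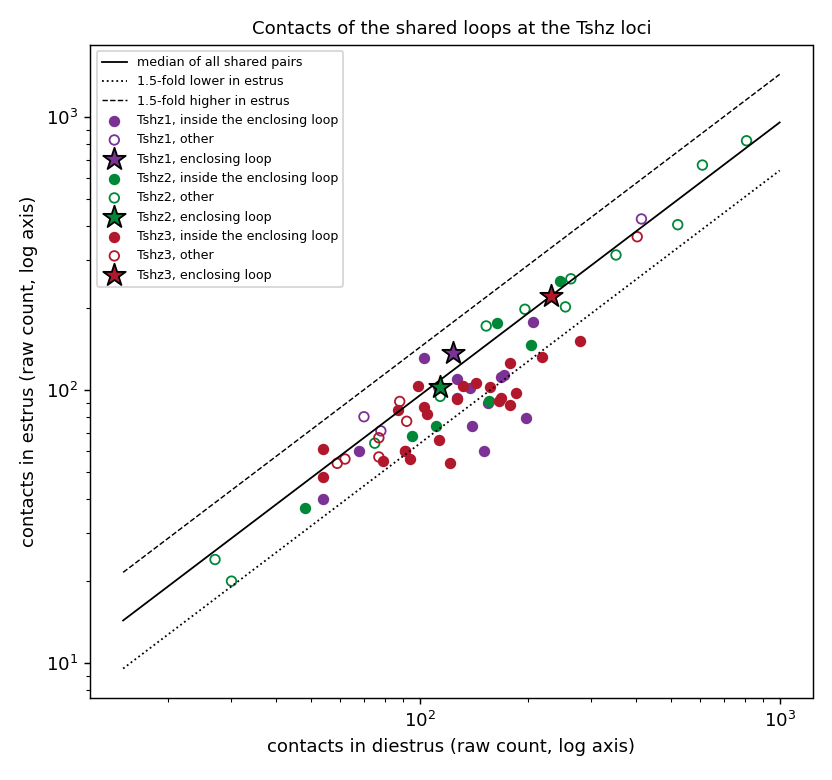
Contacts in estrus (vertical, raw counts, log axis) against contacts in diestrus (horizontal, raw counts, log axis) of the 69 loop pairs shared by both libraries in the Tshz windows. Filled points lie inside the enclosing loop, open points cross its end or lie beside it, stars are the 3 enclosing loops, and the lines give the median ratio of all shared pairs and 1.5-fold either side of it. Of the points inside, 14 of 46 fall below the lower line and 0 above the upper line.

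The 69 shared pairs were then compared after subtracting the median log2 ratio of all shared pairs, which was −0.06 for contacts, −0.08 for the donut expectation and 0.02 for strength. Contacts were past 1.5-fold lower in estrus at 14 of 46 pairs inside the enclosing loop, 4 of 14 at Tshz1, 1 of 8 at Tshz2 and 9 of 24 at Tshz3, and at 0 of 18 pairs beside it. Over all shared pairs of the series 2.67% were past 1.5-fold lower. None of the 69 pairs was past 1.5-fold higher, against 1.7% of all shared pairs. The median centred log2 ratio of contacts inside was −0.37 at Tshz1, −0.37 at Tshz2 and −0.50 at Tshz3, and beside it was −0.07, −0.04 and −0.08 in the same order of genes. The larger decrease was at Tshz3, where 20 of 24 pairs inside had a ratio of contacts below the series median.

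The surroundings of the loops were lower along with the loops. The contacts expected from the donut, here called the local background, are the caller's estimate of how often bins at the same distance nearby touch. Inside the enclosing loop the ratio of local background was below the series median at 43 of 46 pairs, 12 of 14 at Tshz1, 7 of 8 at Tshz2 and all 24 at Tshz3. Beside it, 9 of 18 pairs were below. The median centred log2 ratio inside was −0.26 at Tshz1, −0.32 at Tshz2 and −0.37 at Tshz3. Past 1.5-fold lower there were 4 pairs inside and 1 across an end, against 1.49% of all shared pairs. Since strength divides contacts by this background, it moved less: its median inside was −0.28 at Tshz1, 0.03 at Tshz2 and −0.08 at Tshz3. Strength was past 1.5-fold lower at 4 of the 69 pairs, against 1.56% of all shared pairs, and past 1.5-fold higher at 1 pair, the Tshz1 enclosing loop at a centred log2 ratio of 0.60, against 1.64%. At Tshz2 and Tshz3 the lower contacts inside thus went with a lower surrounding and little difference in median strength by the donut. Over all shared pairs of a window, median strength by the donut was −0.118 at Tshz1, −0.011 at Tshz2 and −0.028 at Tshz3. With the caller's bottom-left neighbourhood in place of the donut it was −0.108, −0.133 and 0.021. The value at Tshz2 thus depended on the neighbourhood used. At Tshz1 the ratio of strength was below the series median at 9 of 14 pairs inside.

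**Figure D3:**
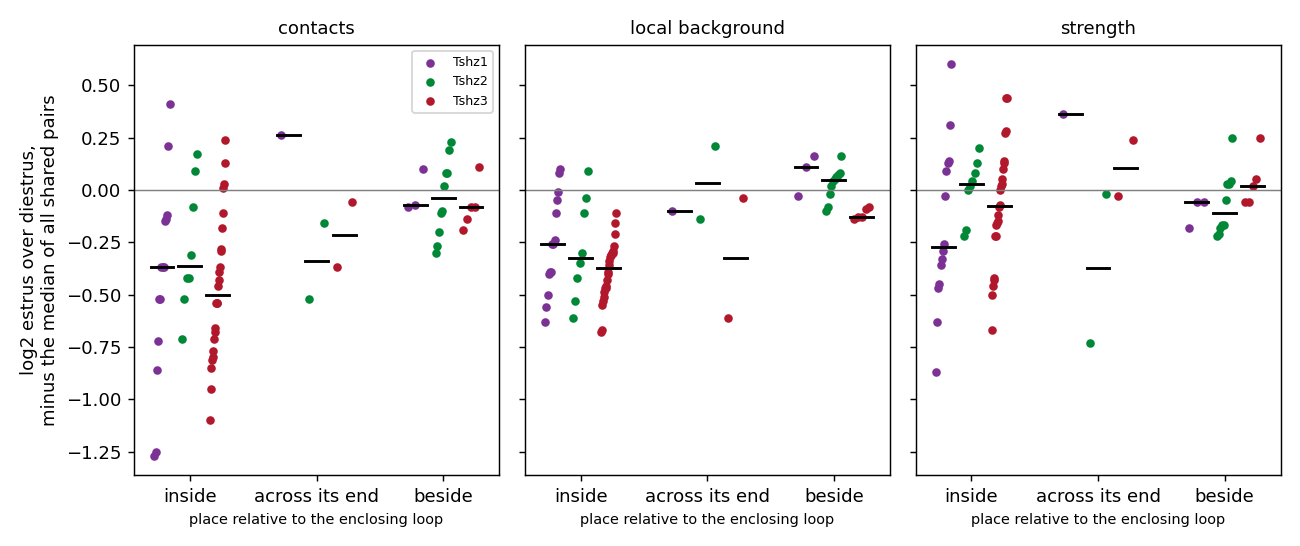
Log2 ratio, estrus over diestrus, of contacts, local background and strength of each shared pair in the Tshz windows, minus the median over all shared pairs of the series. Each point is 1 loop pair, placed by whether it lies inside the enclosing loop, across its end or beside it, and black bars are medians. Local background lies below 0 at 43 of 46 pairs inside and at 9 of 18 beside.

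Other long loops of the genome showed part of the same difference. A set of 183 other shared enclosing loops of 1 to 2 Mb with at least 100 contacts in both libraries and at least 5 shared pairs inside, on 19 chromosomes, was described in the same way without centring. Summed over the 183, the loops inside came to 2695 in estrus and 3464 in diestrus. Loops inside nested or overlapping ones were counted more than once in these sums. Their median log2 ratio of local background inside was −0.16, between −0.39 and 0.12, against −0.08 over all shared pairs, so a lower background in estrus was common inside long loops. The same value was −0.34 at Tshz1 over 15 pairs, of which 1 lay outside the window, −0.40 at Tshz2 over 8 pairs and −0.45 at Tshz3 over 24 pairs. After centring, it was −0.258, −0.325 and −0.373 in the same order. Over pairs at identical bins alone, the centred value was −0.253, −0.208 and −0.324, so that of Tshz2 depended most on the pairs used. Of the 183 others, 7 were as low as or lower than Tshz1 and 0 as low as Tshz2 or Tshz3. One on chromosome 8, at −0.395, came close to Tshz2 at −0.403. The place among the others was not computed over identical bins, where the value of Tshz2 was nearer to theirs. Many of the 183 overlapped or were nested in each other, so they stand for fewer separate domains. A shorter shared loop over Tshz3, nested in its enclosing loop, was at −0.47 and was left out of the 183. All listed loops inside were counted here, not those of the windows alone. They numbered 18 in estrus and 25 in diestrus at Tshz1, 12 and 22 at Tshz2, and 27 and 42 at Tshz3. The ratio of these loop numbers stood out less, with 78 others as low as or lower than Tshz1, 16 than Tshz2 and 43 than Tshz3. For contacts, the values were −0.44, −0.43 and −0.56 at Tshz1, Tshz2 and Tshz3, and 10, 11 and 6 others were as low or lower, with a median of −0.17 and a lowest value of −0.91. Fixed tiles of 1.5 Mb, which cut through such domains, gave a less uniform picture. The tile with Tshz3 had the lowest log2 ratio of local background of 1162 tiles with at least 5 pairs, at −0.47. The tile with Tshz2 was at −0.08, rank 536 from the lowest, and that with Tshz1 at 0.00, rank 930.

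**Figure D4:**
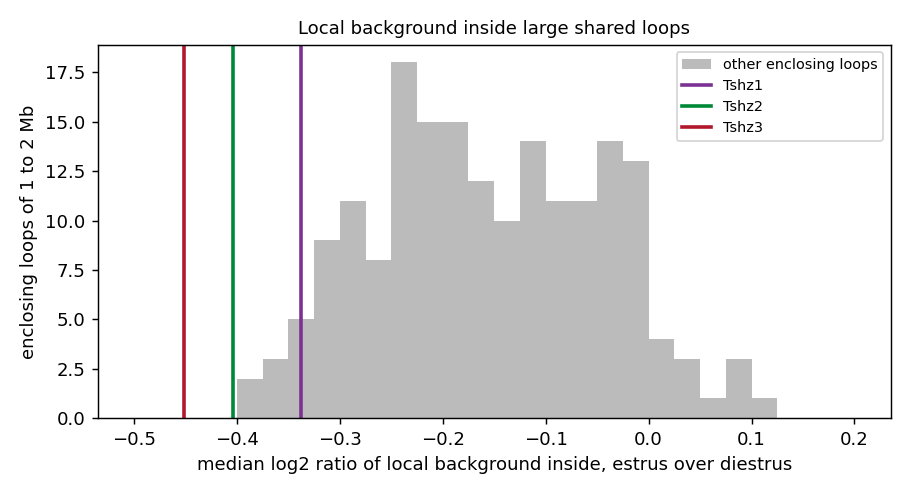
Median log2 ratio, estrus over diestrus and not centred, of the local background of the shared pairs inside each enclosing loop of 1 to 2 Mb (horizontal), with the number of enclosing loops on the vertical axis. Grey bars are 183 other enclosing loops, many of them nested or overlapping, and the coloured lines are Tshz1 at −0.34, Tshz2 at −0.40 and Tshz3 at −0.45.

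Tshz1 spans 18:84011627-84087708, a gene of 76.1 kb whose nearest protein-coding neighbours are Zfp516, a zinc finger gene 1006 kb away, and Zadh2, now also called Ptgr3, a prostaglandin reductase gene 0.417 kb away on the other side. Anchors are named below by the position where they begin, in Mb, and are 10 kb wide. Loops met Tshz1 at its higher-numbered end, in the anchor at 84.08 Mb, with 5 loops in estrus and 6 in diestrus, and 0 at the other end in both. That anchor is shared with an end of Zadh2, so loops of the 2 genes cannot be told apart. The loop between 83.63 Mb and this anchor, 450 kb long, had 60 contacts in estrus and 151 in diestrus, a ratio of 0.397 (0.290 to 0.539), and a strength of 2.90 in estrus and 5.26 in diestrus. This was the largest decrease among the shared loops of the 3 windows. From the same anchor to the lower end of the enclosing loop at 83.06 Mb there were 74 contacts in estrus and 140 in diestrus, a ratio of 0.529. A nearer partner of the gene, at 83.81 Mb, differed little, with 178 contacts in estrus and 207 in diestrus.

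The anchor at 83.63 Mb, which holds an end of the predicted gene Gm31621, lay at −377 kb from the lower-numbered end of Tshz1 and carried 4 loops in estrus and 9 in diestrus. All 4 estrus loops were found in diestrus, and 4 of the 9 diestrus loops were found in estrus. The loop from it to 83.06 Mb had 79 contacts in estrus and 197 in diestrus, a ratio of 0.401 (0.305 to 0.523), with a strength of 3.21 in estrus and 4.91 in diestrus. Its interval does not meet that of the enclosing loop, which shares the anchor at 83.06 Mb. The loop to 83.30 Mb had 90 contacts in estrus and 155 in diestrus. Of the 9 diestrus loops without a counterpart in this window, 5 had an anchor at 83.63 Mb, and the strongest, to 84.03 Mb inside Tshz1, had 74 contacts at a strength of 3.46. The strongest estrus loop without a counterpart, between 83.07 and 83.52 Mb, had 57 contacts at a strength of 2.73. In the other direction, the shared loop between 84.38 and 84.53 Mb had 131 contacts in estrus and 103 in diestrus, the highest ratio of the windows, 1.272 (0.975 to 1.66). The loops with most contacts lay beside the enclosing loop, with 424 contacts in estrus and 413 in diestrus between 84.68 Mb, at the end of the dipeptidase gene Cndp2, and 84.79 Mb.

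Tshz2 spans 2:169632509-170072751 and, at 440 kb, is the longest of the 3 genes. Its nearest protein-coding neighbours are Zfp64, 677 kb away on the lower side, and Zfp217, a zinc finger gene 35.9 kb away on the higher side. It was the gene with the largest difference in loops at its ends, with 7 in estrus and 13 in diestrus. Among 21631 protein-coding genes, 594 (2.75%) had at least 2 loops fewer in estrus. Of the 21631 genes, 12582 had no loop at their ends in either library and could not show such a difference. Genes with many loops can show it more easily. The start, at 169.63 Mb, carried 6 loops in estrus and 7 in diestrus, whereas the end, at 170.07 Mb, carried 2 in estrus and 7 in diestrus. Widening the count by 1 bin on each side left the end at 2 and 7. The difference at Tshz2 was therefore at the end of the gene more than at its start.

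The loop joining the start of Tshz2 to its end had 146 contacts in estrus and 204 in diestrus, a ratio of 0.716 (0.575 to 0.890), with a strength of 4.07 in estrus and 4.01 in diestrus. Contacts from the start to 169.92 Mb, inside the gene, were 91 in estrus and 156 in diestrus, the lowest ratio of the window at 0.583 (0.445 to 0.760). Those from the start down to 169.06 Mb, the lower end of the enclosing loop, were 74 in estrus and 111 in diestrus. The short loop from the start to 169.75 Mb did not follow, with 251 contacts in estrus and 246 in diestrus. At the end of the gene, 5 diestrus loops were not listed in estrus. They ran to 169.29 Mb with 60 contacts, to 169.50 Mb with 80, to 169.81 Mb with 138, to 169.92 Mb with 336 and to 169.97 Mb with 175, at strengths between 2.24 and 3.81. The anchor at 169.68 Mb inside the gene carried 0 loops in estrus and 4 in diestrus, though 1 estrus loop lay at the next bin. Estrus had loops of its own from the start of the gene to 170.10 Mb, with 64 contacts at a strength of 2.96, and between 169.06 and 169.75 Mb, with 64 contacts at 2.75.

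Beyond the enclosing loop, between Zfp217 and the adaptor gene Dok5, the loops of the Tshz2 window had many contacts and differed little. The loop between 170.45 and 170.50 Mb had 820 contacts in estrus and 809 in diestrus, and that between 170.35 Mb, in Bcas1, and 170.40 Mb had 668 in estrus and 610 in diestrus. The strongest loop of the window below 2 Mb in length, from 170.52 Mb to 170.87 Mb in Dok5, had 256 contacts in estrus and 263 in diestrus at strengths of 12.5 and 12.8. An exception was the loop between 170.11 Mb, in Zfp217, and 170.34 Mb, with 404 contacts in estrus and 521 in diestrus, a ratio of 0.775 (0.679 to 0.885). The highest ratio in the window, 1.124 (0.899 to 1.41), was at the loop between 170.59 and 170.87 Mb, with 172 contacts in estrus and 153 in diestrus. The strongest diestrus loops without a counterpart beside the domain were 170.11 to 170.50 Mb, with 36 contacts at 4.71, and 170.45 to 170.87 Mb, with 42 contacts at 3.77. In estrus the strongest without a counterpart was 170.11 to 170.31 Mb, with 173 contacts at 3.57.

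Tshz3 spans 7:36698118-36773553, a gene of 75.4 kb with no protein-coding neighbour for 895 kb on the side of Zfp507 and for 544.5 kb on the side of Zfp536. Its window had the most loops in both stages and the largest difference between them. Loops met the gene at its start, in the anchor at 36.69 Mb, with 8 loops in estrus and 9 in diestrus, and 0 at its end in both. The next anchor beyond the end, at 36.78 Mb, carried 6 in estrus and 8 in diestrus, so that 13 loops in estrus and 16 in diestrus lay within 10 kb of an end of the gene. The anchor at the start also holds an end of the predicted gene Gm36722. Of these loops 7 were shared in each stage, and all 7 had fewer contacts in estrus. The contacts of all loops at the anchor summed to 844 in estrus and 1482 in diestrus. The start of Tshz3 thus kept nearly the same number of loops with fewer contacts in each.

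From the start of Tshz3 to 36.07 Mb, 620 kb below it, there were 132 contacts in estrus and 218 in diestrus, a ratio of 0.606 (0.484 to 0.755), with a strength of 4.25 in estrus and 4.67 in diestrus. To 35.90 Mb, the lower end of the enclosing loop, there were 88 in estrus and 178 in diestrus, a ratio of 0.494. To 37.34 Mb, its upper end, there were 91 in estrus and 166 in diestrus, a ratio of 0.548. Both ends of the enclosing loop thus met the start of the gene less often in estrus, while they met each other with 222 contacts in estrus and 231 in diestrus. The loop over the gene itself, from the start to 36.78 Mb, had 152 contacts in estrus and 278 in diestrus, a ratio of 0.547 (0.446 to 0.669). The lowest ratio in the window was 0.446 (0.318 to 0.620), between 35.90 Mb and 36.16 Mb in estrus or 36.15 Mb in diestrus, with 54 contacts in estrus and 121 in diestrus. A few pairs inside did not follow, as between 36.07 and 36.31 Mb, with 104 contacts in estrus and 99 in diestrus, and between 36.07 and 36.97 Mb, with 61 in estrus and 54 in diestrus, the highest ratio at 1.130 (0.770 to 1.66).

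Of the anchors in the Tshz3 window, 27 were used in estrus and 39 in diestrus, with 24 in both. These are exact bins, so an anchor moved by 1 bin counts as not shared, as at 37.00 Mb in estrus and 37.01 Mb in diestrus. The share of anchors used in both libraries over the whole series was not computed, so whether this overlap is unusual cannot be said. The anchor at 36.15 Mb, which holds an end of the predicted gene Gm36340, carried 0 loops in estrus and 7 in diestrus, with 1 estrus loop at the next bin. That at 36.09 Mb carried 0 in estrus and 4 in diestrus, of which 2 were found in estrus at bins within 10 kb. The anchor at 36.07 Mb, which holds an end of Gm38991, carried 8 in estrus and 8 in diestrus. The strongest diestrus loops without a counterpart ran from 35.75 and 35.78 Mb to 37.35 Mb, across the lower end of the domain, with 74 contacts at a strength of 6.18 and 63 contacts at 4.75. Inside the domain the strongest, between 35.98 and 36.78 Mb, had 101 contacts at 4.68. The estrus loops without a counterpart were 3, led by 36.97 to 37.34 Mb with 83 contacts at 3.30. Beside the domain, the loop from 37.37 to 37.77 Mb along Zfp536, a zinc finger gene known from neural cells, had 365 contacts in estrus and 402 in diestrus at strengths of 11.9 and 11.7.

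**Figure D5:**
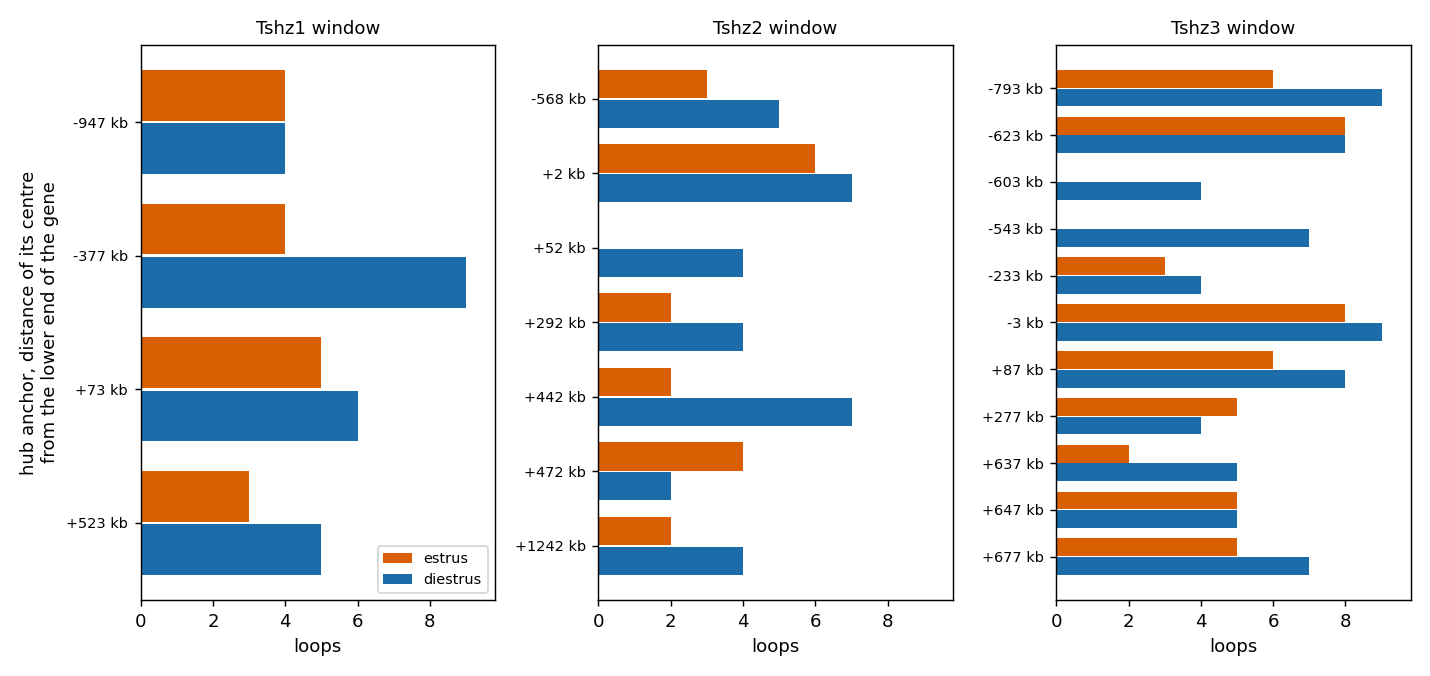
Number of loops (horizontal) at each anchor that carried at least 4 loops of a window in either library, ordered by the distance of the anchor's centre from the lower-numbered end of the gene in kb (vertical), with the estrus bar above the diestrus bar. Estrus had fewer loops at 3 of 4 such anchors at Tshz1, at 6 of 7 at Tshz2 and at 8 of 11 at Tshz3.

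Anchors that carried at least 4 loops in a library numbered 4 at Tshz1, 7 at Tshz2 and 11 at Tshz3. Diestrus had more loops at 3, 6 and 8 of them, estrus at 0, 1 and 1, and the numbers were equal at 1, 0 and 2. Together estrus had fewer at 17 of 22 and more at 2 of 22, against 48.0% and 28.1% of the 3923 such anchors of the whole series. Anchors reached 4 loops in estrus in 3, 2 and 7 cases at Tshz1, Tshz2 and Tshz3, and in diestrus in 4, 6 and 11. An anchor that reached 4 loops in diestrus alone had fewer in estrus by definition, so these counts follow in part from how the anchors were chosen. The anchors with more loops in estrus were 170.10 Mb at the end of Zfp217, with 4 in estrus and 2 in diestrus, and 36.97 Mb, with 5 and 4. At the first of these the surplus was smaller when the next bins were included, with 7 in estrus and 6 in diestrus. The anchors used in both libraries were 19 at Tshz1, of 20 in estrus and 24 in diestrus, and 23 at Tshz2, of 31 in estrus and 32 in diestrus. These too are exact bins, without a share over the whole series beside them.

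By length, the lower number of loops listed in estrus was not confined to 1 class. At Tshz1 the difference lay between 200 and 400 kb, with 6 loops in estrus and 12 in diestrus. At Tshz2 it was largest between 400 and 800 kb, with 5 in estrus and 9 in diestrus, and at Tshz3 also, with 11 in estrus and 18 in diestrus. As a share of the loops at Tshz3, this class differed little, with 32.4% in estrus and 34.0% in diestrus. At Tshz2 its share was 17.9% in estrus and 23.7% in diestrus, against 17.9% and 18.8% over the whole series. Loops over 800 kb numbered 3 in both at Tshz1 and 4 in both at Tshz2, against 7 in estrus and 11 in diestrus at Tshz3. The median length was 350 kb in estrus and 345 kb in diestrus over the 3 windows, against 230.0 kb and 240.0 kb over all loops.

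Besides the Tshz genes, 10 protein-coding genes had an end in an anchor of these loops. Zadh2 had 7 loops in estrus and 8 in diestrus, Dok5 2 and 4, Zfp217 4 and 2, Bcas1 2 and 2, and Cndp2 2 and 2. Zfp536 had 1 in estrus and 2 in diestrus, and so had Dpy19l3, which encodes a mannosyltransferase. Pdcd5 and Mall had 1 in each, and Pfdn4, a prefoldin subunit, had 1 in estrus and 0 in diestrus. None of these genes had as many loops in the windows as the Tshz gene ends with the exception of Zadh2, whose anchor is next to or the same as that of Tshz1.

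The pattern of loops at the gene ends was set beside that of 8738 protein-coding genes with loops, as the Euclidean distance over 10 values, the number of loops in 5 length classes in each library. Nearest to Tshz1 were Rprm, a gene induced by p53, at 1.41 with 5 loops in estrus and 4 in diestrus, Adat2 at 1.73 with 5 and 7, and Akna at 1.73 with 5 and 5. For Tshz2 they were the chemokine gene Cxcl12 at 2.0 with 8 in estrus and 10 in diestrus, Thbs1, which encodes thrombospondin, at 2.83 with 8 and 8, and Osr2 at 3.0 with 9 and 10. Among the genes near Tshz3 were the Polycomb gene Bmi1 and its neighbour Commd3, each at 2.0 with 6 loops in estrus and 7 in diestrus. None of the 3 genes nearest to Tshz2 had as large a difference between libraries as its 7 in estrus and 13 in diestrus.

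A list of 17 genes that encode known partners of teashirt proteins or act in the ureter muscle programme had 35 loops at the gene ends in estrus and 38 in diestrus. Of these genes 5 had more loops in diestrus, 1 more in estrus, 5 the same number and 6 none, with a median difference of 0. Over all 21631 protein-coding genes, 3027 had more in diestrus, 2267 more in estrus, 3755 the same number and 12582 none, also with a median of 0. Sox9, which acts with Tshz3 in the ureter, had 6 in estrus and 3 in diestrus. Tbx18, a T-box gene of ureter mesenchyme, had 5 in estrus and 7 in diestrus, Myocd, the coactivator of smooth muscle genes, 3 and 4, and Ctbp1, a corepressor, 1 and 2. The smooth muscle genes themselves differed in none: Acta2 had 4 loops in each library, Myh11 1 in each, and Tagln and Cnn1 0. A list of 10 zinc finger homeodomain genes had 27 loops in estrus and 31 in diestrus, with 3 genes higher in diestrus, 2 in estrus, 1 equal and 4 without a loop. Zeb2, a repressor of epithelial genes, had 16 in estrus and 18 in diestrus, its relative Zeb1 3 and 5, and Zhx2 2 and 4.

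The edges of the windows fell close to anchors in places. At Tshz1 the nearest anchors inside lay 0 and 10 kb from the lower and upper edge in both libraries, and the nearest anchors outside that belonged to loops not counted here 10 and 110 kb away. At Tshz2 the nearest inside lay 0 and 100 kb from the edges in estrus and 70 and 10 kb in diestrus, with the nearest anchors of loops not counted at 220 and 170 kb in both. At Tshz3 they lay 40 and 320 kb inside in estrus and 40 and 0 kb in diestrus, with the nearest anchors of loops not counted at 240 and 360 kb in estrus and 10 and 360 kb in diestrus.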

How the data were processed

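Uterine Hi-C libraries were grouped by the stage in their labels, 1 per stage. Each deposited list gives loops as pairs of anchors 10 kb wide, in the columns of HiCCUPS, per the file headers, and the submitters' processing notes name Juicer and mm10. The observed contacts and merged pixels are counts made by the authors, not normalized. Contacts expected from 4 neighbourhoods are a signal from the authors' caller on the same scale. The q-values are the authors' own, and 18 member loops had 1 above 0.01. The anchor positions in the deposited lists are of another kind (other: bases). The labels and headers give no depth per library, and summed contacts of called loops are not a depth.

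Loops of the libraries were paired when mutually nearest with both anchors within 10 kb, and the log2 ratio, estrus over diestrus, was centred on the median of all 19399 pairs. Past 1.5-fold was counted. Intervals are 95% (Clopper-Pearson, exact Poisson, exact conditional). No test between stages could be made. Gene positions came from RefSeq GRCm38.p6, 21631 protein-coding genes, and because the gene table used gives no strand, either end of a gene was taken where the plan named the start site. The windows, gene lists and settings were chosen with earlier results of these data known. Named genes were the Tshz genes, protein-coding genes with an end in a member anchor, the 3 nearest genes by loop pattern (1 of them is not reported here) and up to 4 members of each list with the largest difference, besides smooth muscle genes named as without a difference after their values were seen. Loops named were those at a Tshz end, those with most contacts, the extreme ratios and the strongest without counterpart, and anchors with at least 4 loops. The pairing and interval steps were tested on simulated data. Python 3.11.15, numpy 2.4.6, pandas 2.3.3, scipy 1.17.1 and matplotlib 3.10.9 were used.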

Additional observations from a re-analysis of the deposited data

How the results depend on the processing

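The 30 results were recomputed under 111 alternatives in all, of which 99 stayed within the limits used, 12 moved and 0 reversed. Requiring both anchors inside the window left 10 loops in estrus and 16 in diestrus at Tshz1, 18 in estrus and 26 in diestrus at Tshz2, and 20 in estrus and 31 in diestrus at Tshz3. Requiring identical bins lowered the share of Tshz3 estrus loops found in diestrus to 73.5% and gave summed contact ratios of 0.792 at Tshz1, 0.929 at Tshz2 and 0.741 at Tshz3, against 0.621, 0.818 and 0.511 over all listed loops. Counting any base of the gene gave 11 loops in estrus and 19 in diestrus at Tshz2, and gene ends within 10 kb gave 13 in estrus and 16 in diestrus at Tshz3. Under each setting tried, all 3 windows and all 3 genes had fewer loops in estrus. Centring by length class or chromosome, using identical bins and leaving out the enclosing loop for pairs inside it were added after the data were seen. No paired analysis was possible because there was 1 library per stage. Sums over called loops move with how many were called, low contact numbers limit single loops most, and 1 library per stage leaves the spread between animals unknown.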

Other observations

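Of the shared loops in the Tshz2 window, 1 joined 127.73 Mb on chromosome 2, at the end of Mall, a gene of the MAL proteolipid family, to 169.34 Mb, 41610 kb away. It had 20 contacts in estrus and 30 in diestrus against a local background of 0.159 in estrus and 0.145 in diestrus, so its strength was 126 in estrus and 207 in diestrus. Both libraries listed it at the same bins.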
